A study of Homo sapiens with 24 samples.

Results

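The 6 transcripts NACC2, SLIT2, GRIK1, BICC1, INPP4B and GEMIN5 were studied in A2780 and A2780cis ovarian cancer cells exposed to 5-FdU-ECyd. They were taken from the 63299 genes of the count table by their Ensembl identifiers, as genes other than chaperones that stood among the larger decreases at 6 h or 12 h of treatment in either line. They were chosen by their fold changes between treated and untreated libraries, and these changes are given below as a description without a test. All 6 were among the 20240 genes that passed the filter on low counts, which was run over both lines together. GRIK1, BICC1 and INPP4B passed it through their A2780 libraries alone. In A2780cis they had at most 9, 6 and 5 counts in any library. A2780 is a platinum-sensitive human ovarian cancer cell line. A2780cis is its isogenic platinum-resistant derivative, which was kept under intermittent cisplatin. Cells received standard medium (control) or medium with 1 μM 5-FdU-ECyd, a duplex-prodrug that joins 2'-deoxy-5-fluorouridine and 3'-C-ethynylcytidine and yields inhibitors of DNA and RNA synthesis, and were harvested after 6 h or 12 h, which makes 8 groups of 3 libraries. Each line stands for 1 cell population. The study calls the triplicates biological, and p-values measure the spread between these libraries.

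The 6 genes belong to unrelated processes. SLIT2 encodes a secreted axon guidance ligand that signals through ROBO receptors, GRIK1 a kainate-type ionotropic glutamate receptor subunit, and INPP4B a phosphatase that removes the 4-phosphate of phosphatidylinositol 3,4-bisphosphate and limits PI3K-AKT signaling. BICC1 is an RNA-binding protein with KH and SAM domains that is known from cystic kidney disease. GEMIN5 is the subunit of the SMN complex that recognises small nuclear RNAs during assembly of spliceosomal particles. NACC2 is a BTB and BEN domain transcriptional repressor that recruits the NuRD complex. The span of a gene, from start to end with its introns, sets how long a polymerase needs to transcribe it, and is given for each member below.

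Between 11077368 and 21901406 reads per library were assigned to genes. Levels are given as CPM, the read count scaled to the TMM-adjusted library size, as mean ± SD of 3 libraries. Scaling by library size alone would move every log2 fold change (log2 FC) of A2780 at 12 h by 0.22 toward higher values, and those of the other 3 treatment comparisons by 0.07 to 0.11. Of 10 epithelial and ovarian carcinoma markers, KRT8 and KRT18 had a median above 1 CPM in each line, while KRT7 had 0 counts in every library and PAX8, WT1 and CDH1 did not exceed 2 counts. The leukocyte and endothelial markers PTPRC, CD3E, PECAM1, VWF and CDH5 had at most 1 count in any library. CD68, a macrophage marker, had a median of 2.78 CPM in A2780 and 6.56 CPM in A2780cis libraries. Of the 12 markers of other cell types, 6 exceeded a median of 1 CPM in A2780 and 3 in A2780cis. Their summed level was 120 to 147 CPM in A2780 libraries and 11.8 to 15.3 CPM in A2780cis libraries, mostly from ACTA2 and COL1A2 in A2780. Their part in the line differences below was not tested, and in bulk RNA fewer cells of a kind and less RNA per cell cannot be told apart.

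The members lie on 5 chromosomes (GRCh38 coordinates, GENCODE release 44). INPP4B was the longest, with 824 kb at chr4:142023160-142847432 on the minus strand and 26 exons in its canonical transcript. GRIK1 spans 403 kb at chr21:29536933-29940033 (minus strand, 18 exons), SLIT2 spans 369 kb at chr4:20251905-20620561 (plus strand, 37 exons) and BICC1 spans 319 kb at chr10:58512872-58831435 (plus strand, 21 exons). NACC2 covers 88.8 kb at chr9:136006537-136095289 (minus strand, 6 exons) and GEMIN5 covers 50.8 kb at chr5:154887411-154938211 (minus strand, 28 exons). INPP4B was longer than 99.4% of the 13881 protein-coding genes tested, GRIK1 than 97.8%, SLIT2 than 97.4%, BICC1 than 96.6%, NACC2 than 77.8% and GEMIN5 than 63.3%.

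The 250 bases before the transcription start are shown for the 4 members with an entry in the RefSeq promoter table (GRCh38.p14), since 2 of them were far lower in untreated A2780cis than in A2780 cells (SLIT2, INPP4B) and 2 were expressed in both lines (NACC2, GEMIN5). GRIK1 and BICC1 had no entry. Capitals mark the GC box letters GGGCGG or, on the other strand, CCGCCC. For INPP4B the outermost of 6 listed starts was taken. That start lies inside the span given above, which runs to 142847432. Its window is therefore not the sequence before the outermost start of the GENCODE annotation.
SLIT2, chr4:20251655-20251904, plus strand: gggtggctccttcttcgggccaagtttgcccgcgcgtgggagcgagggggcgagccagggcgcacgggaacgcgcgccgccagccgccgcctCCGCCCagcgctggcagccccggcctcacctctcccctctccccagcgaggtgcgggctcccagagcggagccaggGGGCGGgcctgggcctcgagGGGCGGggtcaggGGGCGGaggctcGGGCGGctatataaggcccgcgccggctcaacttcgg
INPP4B, chr4:142846302-142846551, minus strand: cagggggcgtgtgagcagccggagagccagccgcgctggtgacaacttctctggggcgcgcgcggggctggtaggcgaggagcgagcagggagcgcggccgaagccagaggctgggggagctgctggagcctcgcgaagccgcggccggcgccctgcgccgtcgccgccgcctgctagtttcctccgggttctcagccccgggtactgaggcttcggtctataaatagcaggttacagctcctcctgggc
NACC2, chr9:136095290-136095539, minus strand: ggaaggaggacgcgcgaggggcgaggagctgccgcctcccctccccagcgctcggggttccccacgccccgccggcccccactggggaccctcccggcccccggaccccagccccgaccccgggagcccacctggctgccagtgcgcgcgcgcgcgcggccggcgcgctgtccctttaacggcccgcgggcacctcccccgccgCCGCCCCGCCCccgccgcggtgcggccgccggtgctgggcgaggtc
GEMIN5, chr5:154938212-154938461, minus strand: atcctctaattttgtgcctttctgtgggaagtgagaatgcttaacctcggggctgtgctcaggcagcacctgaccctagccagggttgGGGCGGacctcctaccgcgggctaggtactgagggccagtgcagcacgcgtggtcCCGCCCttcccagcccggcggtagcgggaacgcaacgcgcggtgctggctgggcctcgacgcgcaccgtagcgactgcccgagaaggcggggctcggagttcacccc
The GC box letters occurred 5 times before SLIT2, 2 times before NACC2, where the copies overlap, 2 times before GEMIN5 and not before INPP4B. They were found in the same window of 42.6% of the 35116 starts of the table. The exact letters TATAAA, read on both strands, were found before INPP4B alone among the 4 and in 10.7% of all starts. The SLIT2 window holds the near form tatataag toward its end, which a search for exact letters leaves out. CCAAT was found in none of the 4 windows and in 32% of all starts. CG dinucleotides numbered 38 before NACC2, 30 before SLIT2, 27 before INPP4B and 22 before GEMIN5, against a median of 11. All 4 windows thus lay above the median, with fewer CG in 96.7%, 87.6%, 82.3% and 72% of all starts in the same order. GRIK1 and BICC1, which were also far lower in A2780cis, have no window here. The CG counts were therefore not set against the line difference.

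In untreated A2780 cells all 6 transcripts were readily counted. Per kilobase of exon, GEMIN5 had the highest level at 6 h (24.999 ± 0.956 CPM per kb), followed by SLIT2 (12.0 ± 0.335), GRIK1 (5.13 ± 0.177), NACC2 (3.04 ± 0.119), BICC1 (2.61 ± 0.287) and INPP4B (1.74 ± 0.148). The SDs of neighbours in this order did not reach each other.

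**Figure D1:**
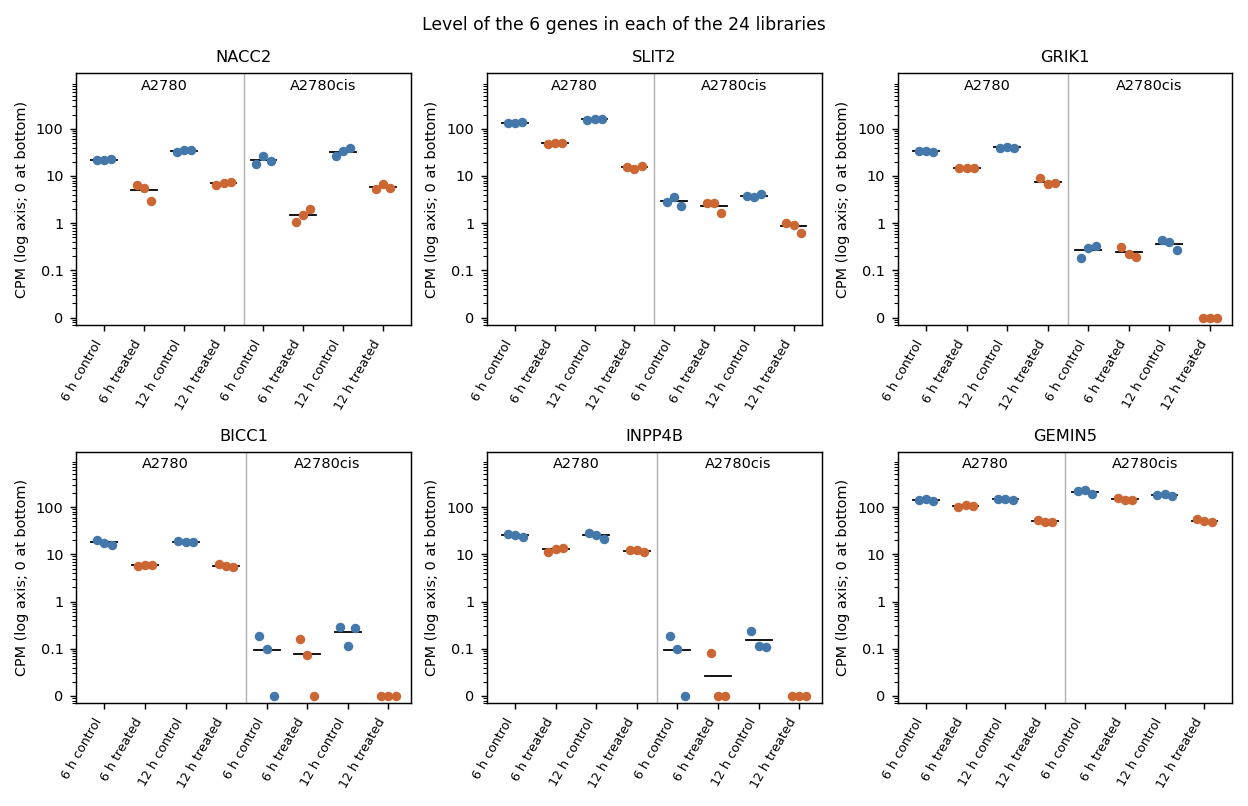
Level of each of the 6 genes in CPM on a log axis, 1 point per library (blue, control; orange, 1 μM 5-FdU-ECyd) and a line at the mean of 3 libraries, with libraries at 0 drawn at the bottom. NACC2 and GEMIN5 were expressed in both lines, while SLIT2, GRIK1, BICC1 and INPP4B of A2780cis lay below all A2780 libraries.

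SLIT2 was the member with the largest decrease in A2780 at 12 h. Untreated A2780 libraries held 133, 129 and 137 CPM at 6 h and 157, 157 and 158 CPM at 12 h. The treated ones held 48.4, 49.1 and 50.8 CPM at 6 h and 15.7, 14.1 and 16.2 CPM at 12 h. Each group lay apart from the others, with the treated libraries at 37.1% of the control mean at 6 h (log2 FC = -1.43, SE 0.11) and at 9.73% at 12 h (log2 FC = -3.36, SE 0.11). Between the time points the log2 FC moved by -1.93 (SE 0.15) on the log2 scale. In A2780cis SLIT2 was low throughout. Control libraries held 2.87, 3.61 and 2.37 CPM at 6 h and 3.71, 3.54 and 4.21 CPM at 12 h, from 29 to 78 counts each. Treated libraries held 2.63, 2.70 and 1.65 CPM at 6 h, which overlapped the controls (log2 FC = -0.38, SE 0.19), and 1.02, 0.919 and 0.623 CPM at 12 h, all below them (log2 FC = -2.15, SE 0.20). The 6 h libraries of A2780cis thus did not separate by treatment and the 12 h libraries did.

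GRIK1, the kainate receptor subunit, followed a course close to that of SLIT2 in A2780. Its control libraries held 33.9, 34.5 and 32.3 CPM at 6 h and 39.5, 41.9 and 39.5 CPM at 12 h. Treatment left 14.8, 14.5 and 14.4 CPM at 6 h (43.4% of control, log2 FC = -1.20, SE 0.11) and 8.97, 6.79 and 7.14 CPM at 12 h (18.9%, log2 FC = -2.41, SE 0.11). No treated library overlapped a control, and the log2 FC moved by -1.21 (SE 0.16) from 6 h to 12 h. In A2780cis the gene was counted 2, 3 and 4 times in the 6 h controls and 4, 3 and 4 times in the treated libraries, a ratio of 1.18 (95% exact counting interval 0.431 to 3.12), so that no change was detectable at this depth. At 12 h the controls held 9, 7 and 5 counts and the treated libraries 0. With 3 counts over the group as the most that a count of 0 allows, the level was 6.03-fold lower. That fold takes the control counts as exact and is no lower limit, since their counting error could make it smaller.

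BICC1, the RNA-binding protein, dropped early in A2780 and was level thereafter. Controls held 19.96, 17.4 and 16.1 CPM at 6 h and 19.3, 18.2 and 18.2 CPM at 12 h. Treated libraries held 5.63, 5.83 and 5.93 CPM at 6 h and 6.31, 5.67 and 5.29 CPM at 12 h. The treated groups of both times overlapped each other and lay below every control, at 32.5% of control at 6 h (log2 FC = -1.62, SE 0.17) and 31.0% at 12 h (log2 FC = -1.69, SE 0.16). The difference between the time points was -0.07 (SE 0.23) on the log2 scale. In A2780cis the 6 h libraries had 3 counts in all in each group, too few for a fold change. The 12 h controls had 6, 2 and 5 counts and the treated libraries 0. Counted as for GRIK1, with the control counts taken as exact, the level was 3.73-fold lower.

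INPP4B, the lipid phosphatase with the longest gene, had the smallest decrease among the members of A2780 at 12 h. Its controls held 27.3, 25.6 and 23.0 CPM at 6 h and 28.8, 25.5 and 21.1 CPM at 12 h. Treated libraries held 11.3, 13.05 and 13.6 CPM at 6 h (49.98% of control, log2 FC = -1.001, SE 0.15) and 12.3, 12.5 and 11.2 CPM at 12 h (47.6%, log2 FC = -1.07, SE 0.15). As for BICC1, treated libraries of both times overlapped each other and not the controls, and the difference between the time points was -0.07 (SE 0.21). In A2780cis the gene had 3 counts in the 6 h controls and 1 in the treated libraries, and no fold change is given. At 12 h there were 5, 2 and 2 counts in the controls and 0 in the treated libraries. Counted as for GRIK1, with the control counts taken as exact, the level was 2.59-fold lower.

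NACC2, the BTB and BEN domain repressor, was lost early in both lines. In A2780 the controls held 21.3, 21.6 and 22.9 CPM at 6 h and 31.9, 35.0 and 35.4 CPM at 12 h, and the treated libraries 6.48, 5.46 and 2.96 CPM at 6 h and 6.31, 7.18 and 7.34 CPM at 12 h. This amounts to 22.6% of control at 6 h (log2 FC = -2.16, SE 0.20) and 20.4% at 12 h (log2 FC = -2.29, SE 0.18), a difference of -0.13 (SE 0.27). In A2780cis the controls held 18.2, 26.7 and 20.4 CPM at 6 h and 26.8, 33.2 and 38.6 CPM at 12 h. The treated libraries held 1.04, 1.46 and 1.98 CPM at 6 h and 5.40, 6.78 and 5.61 CPM at 12 h. The level at 6 h was 6.85% of control (log2 FC = -3.80, SE 0.23), and at 12 h it was 18.02% (log2 FC = -2.47, SE 0.18). NACC2 in A2780cis was the one case in which the decrease was smaller at 12 h than at 6 h, with a difference of 1.33 (SE 0.30). Treated A2780cis libraries of 6 h lay below those of A2780, while the treated libraries of the lines overlapped at 12 h.

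GEMIN5, the SMN complex subunit, had the highest level per kilobase in untreated A2780 at 6 h and a larger decrease at 12 h than at 6 h in both lines. In A2780 the controls held 138, 147 and 138 CPM at 6 h and 149, 147 and 141 CPM at 12 h, against 101, 110 and 107 CPM and 52.3, 49.4 and 47.8 CPM after treatment. In A2780cis the controls held 216, 228 and 186 CPM at 6 h and 183, 186 and 171 CPM at 12 h, against 155, 140 and 142 CPM and 55.1, 50.8 and 47.9 CPM after treatment. No treated library reached its controls. The level was 75.1% of control at 6 h (log2 FC = -0.41, SE 0.08) and 34.2% at 12 h (log2 FC = -1.55, SE 0.08) in A2780, and 69.5% (log2 FC = -0.52, SE 0.08) and 28.5% (log2 FC = -1.81, SE 0.08) in A2780cis. From 6 h to 12 h the log2 FC moved by -1.14 (SE 0.12) and -1.29 (SE 0.12). After 12 h of treatment the libraries of the lines overlapped.

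**Figure D2:**
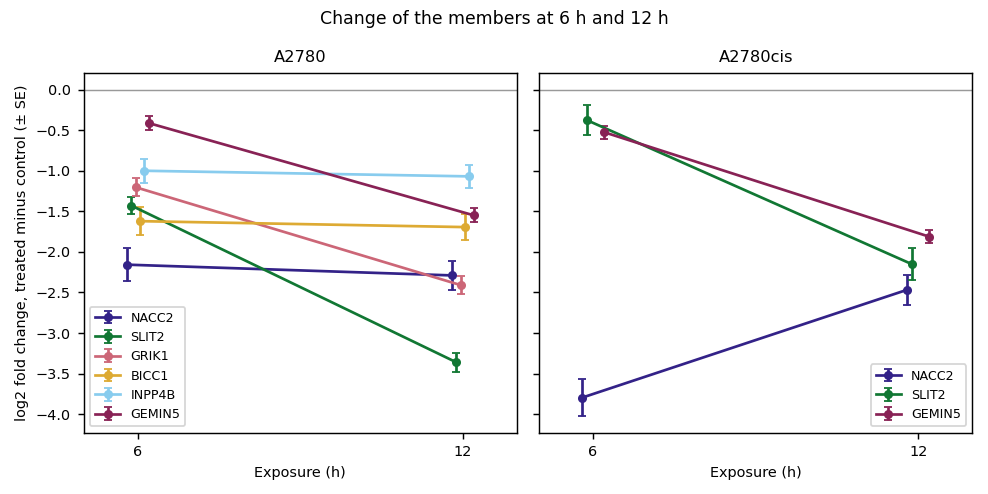
Log2 fold change of treated over control cells at 6 h and 12 h of exposure, 1 line per gene, with bars of 1 SE from the fit of 24 libraries. SLIT2, GRIK1 and GEMIN5 were lower at 12 h than at 6 h in A2780 while NACC2, BICC1 and INPP4B stayed level, and NACC2 of A2780cis moved from -3.80 to -2.47. GRIK1, BICC1 and INPP4B of A2780cis are not drawn, since their treated libraries of 12 h held 0 counts.

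All 6 members lay below every control library in A2780 at 6 h, in A2780 at 12 h and in A2780cis at 12 h, where 20.5%, 31% and 29.4% of all genes tested did so, and 2 members (NACC2 and GEMIN5) did in A2780cis at 6 h, where 22.1% did. The members were chosen for this, so nothing is read from these counts. In the order of fitted log2 FC from the largest decrease, counted over the 20240 genes, NACC2 was at place 8 in A2780cis at 6 h and 50 in A2780 at 6 h. SLIT2 was at place 13 in A2780 at 12 h. GRIK1, BICC1 and INPP4B were at places 2, 5 and 11 in A2780cis at 12 h, which rests on 21, 13 and 9 control counts. GEMIN5 came no nearer than place 423 (A2780cis at 12 h), and among the 13091 genes whose mean log2 CPM was 2 or more its nearest place was 192 (A2780 at 12 h). GEMIN5 was therefore not among the largest fold decreases, although it was among the more abundant transcripts. INPP4B in A2780 came no nearer than place 616, at 6 h.

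Before any drug was given, GRIK1, BICC1 and INPP4B were close to absent from A2780cis and SLIT2 was low. The untreated lines were compared by a two-sided quasi-likelihood test in edgeR, adjusted after Benjamini and Hochberg over 20240 genes. This contrast is not one of those that chose the members, but it shares its control libraries with them. GRIK1, BICC1 and INPP4B passed the filter on low counts through their A2780 libraries alone. A gene so near 0 in A2780cis can pass only if it is higher in A2780. The line differences of GRIK1, BICC1 and INPP4B are therefore tied to the choice, and their p-values lend it no support. At 6 h and at 12 h 4 members were lower in A2780cis, where 22.9% and 27.5% of all genes tested were, and 1 member was higher, where 25% and 25.4% were. SLIT2 was at 2.21% of the A2780 level at 6 h and 2.42% at 12 h (log2 FC = -5.51, SE 0.14, adjusted p = 4.36e-21, and -5.36, SE 0.13, adjusted p = 1.00e-21). GRIK1 was at 0.807% and 0.907% (log2 FC = -6.90, SE 0.20, adjusted p = 2.34e-19, and -6.75, SE 0.17, adjusted p = 1.36e-20). For BICC1 the 6 h comparison set 639 counts in A2780 against 3 in A2780cis, a ratio of 198 (95% counting interval 67.5 to 963), and the 12 h comparison 962 against 13, a ratio of 81.4 (47.4 to 154), with adjusted p = 1.20e-15 and 1.34e-16 in edgeR. For INPP4B it was 904 against 3 counts, a ratio of 280.3 (95.6 to 1362), and 1288 against 9, a ratio of 158 (82.7 to 345), with adjusted p = 1.46e-16 and 1.44e-17 in edgeR. In every A2780 library, treated or not, these 4 genes stood above every A2780cis library.

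A difference of this size was uncommon but not rare between the lines. Of the 20240 genes tested, 734 (3.63%) at 6 h and 772 (3.81%) at 12 h passed the threshold with a log2 FC of -5 or lower in A2780cis. GEMIN5 went the other way, with 149% of the A2780 level at 6 h (log2 FC = 0.57, SE 0.08, adjusted p = 1.65e-06 in edgeR) and 124% at 12 h (log2 FC = 0.31, SE 0.08, adjusted p = 0.00247), above A2780 in 3 of 3 libraries at both times. NACC2 did not pass the test (log2 FC = -0.01, SE 0.17, adjusted p = 0.961, and -0.05, SE 0.16, adjusted p = 0.802 in edgeR). These calls were the same under each alternative run and with each library left out.

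**Figure D3:**
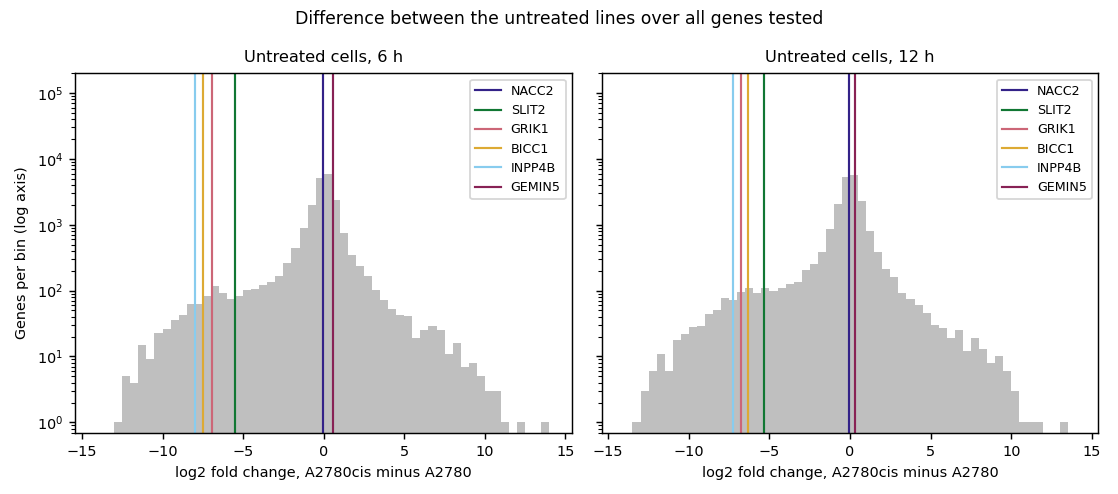
Number of genes (log axis) by log2 fold change of untreated A2780cis over untreated A2780, for 20240 genes at 6 h (left) and 12 h (right), with a coloured line for each member. SLIT2, GRIK1, BICC1 and INPP4B lie at -5.36 or lower in the left tail, and NACC2 and GEMIN5 near the centre.

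The untreated level of NACC2 also moved with time in culture. It was higher at 12 h than at 6 h in A2780 (log2 FC = 0.64, SE 0.17, adjusted p = 0.00825 in edgeR) and in A2780cis (log2 FC = 0.60, SE 0.17, adjusted p = 0.00703), in 3 of 3 libraries each time. The call in A2780cis was lost without replicate 3 of the 12 h controls (adjusted p = 0.0608 in edgeR). GEMIN5 was lower at 12 h in A2780cis (log2 FC = -0.22, SE 0.08, adjusted p = 0.0327 in edgeR), but the groups overlapped and the call was lost in 5 of the 6 fits with 1 library left out (adjusted p = 0.00926 to 0.168). With library size alone it was also lost (log2 FC = -0.05, adjusted p = 0.662 in edgeR), as it was without a filter (adjusted p = 0.415) and with the compared samples alone (adjusted p = 0.309). SLIT2 of A2780cis did not pass (log2 FC = 0.39, adjusted p = 0.0725 in edgeR) but was called higher at 12 h with library size alone (log2 FC = 0.56, adjusted p = 0.0161) and without replicate 2 of the 6 h controls (log2 FC = 0.55, adjusted p = 0.0266). The other 5 members of A2780 and 4 of A2780cis did not pass the threshold. SLIT2 in A2780 rested at log2 FC = 0.24 (SE 0.10, adjusted p = 0.0773 in edgeR) and GRIK1 at 0.26 (SE 0.10, adjusted p = 0.0589), in both cases with 3 of 3 libraries above those of 6 h. In A2780, 16.6% of all genes were called higher and 10.3% lower at 12 h, and in A2780cis 18% higher and 21.9% lower. The difference of this time change between the lines did not pass the test for any member (adjusted p = 0.517 to 0.990 in edgeR), a test that 0.0296% of all genes passed. A treated library is compared with controls of its own time throughout, so that the decrease of NACC2 at 12 h is set against a higher control than that at 6 h.

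The members were next placed among genes of like span. Over the 13881 protein-coding genes tested, the median log2 FC on treatment went down from class to class of span. For the 4936 genes under 20 kb it was 0.23 in A2780 at 6 h, 0.08 in A2780 at 12 h, 0.19 in A2780cis at 6 h and 0.23 in A2780cis at 12 h. For the 1033 genes over 200 kb it was -0.37, -0.53, -0.45 and -0.83 in the same order. Among these long genes 43%, 58.3%, 48.3% and 61.7% were called lower, against 6.83%, 21.6%, 8.16% and 18.8% of those under 20 kb. This is a description over genes, which are not independent replicates.

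SLIT2, GRIK1, BICC1 and INPP4B belong to the class over 200 kb, and in A2780 at 6 h they stood at places 49, 91, 35 and 144 of its 1033 genes from the largest decrease. At 12 h they stood at places 6, 29, 95 and 273. INPP4B, the longest, had the smallest decrease of the 4 at both times. At 6 h the decreases of the 4 were smaller the longer the gene, from BICC1 over SLIT2 and GRIK1 to INPP4B, whereas at 12 h SLIT2 had the largest decrease, followed by GRIK1, BICC1 and INPP4B. In A2780cis at 6 h SLIT2 was at place 585 of 1033, near the middle, and at 12 h at place 67. NACC2 and GEMIN5 belong to the 2454 genes of 50 to 100 kb, whose medians were -0.04, -0.07, -0.11 and -0.23. NACC2 stood at places 3, 6, 1 and 9 of this class over the 4 comparisons and GEMIN5 at places 360, 39, 307 and 41.

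**Figure D4:**
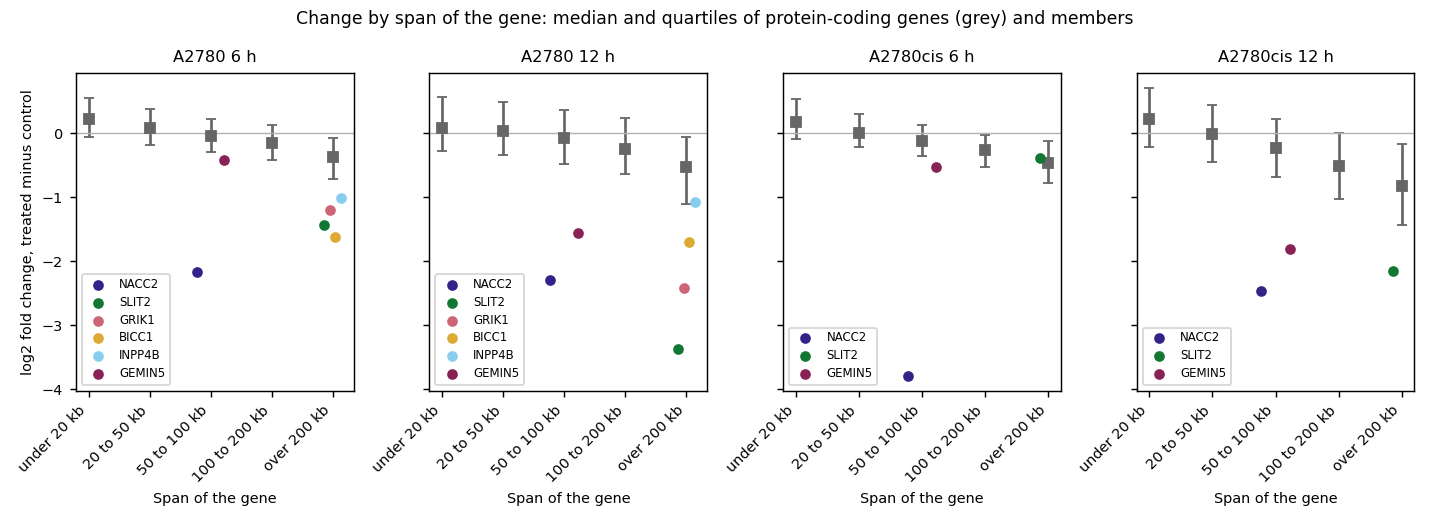
Log2 fold change of treated over control cells by span of the gene in each line and time: grey squares are medians and grey bars the quartiles of the protein-coding genes tested, and coloured points are members with counts in every group of the line. The grey medians go down from under 20 kb to over 200 kb in each panel, and the members lie below the lower quartile of their class except SLIT2 in A2780cis at 6 h and INPP4B in A2780 at 12 h.

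Other genes inside the spans of the members were looked at because reads over several genes had been allowed. GRIK1-AS1, an antisense lncRNA at chr21:29748175-29764002 that shares no exonic base with GRIK1, had 12, 12 and 7 counts in A2780 controls at 6 h and 0, 4 and 3 after treatment, a ratio of 4.50 (95% counting interval 1.94 to 12.1, adjusted p = 0.0118 in edgeR). At 12 h it had 11, 7 and 7 counts against 0, 1 and 1, a ratio of 13.3 (3.32 to 116, adjusted p = 0.00101 in edgeR). It had 0 counts in all A2780cis libraries, where GRIK1 was also near 0. BACH1, a transcription factor gene on the opposite strand, shares 45 exonic bases with GRIK1. It was at 52.0 ± 3.03 CPM in A2780 controls and 52.5 ± 2.71 CPM in treated cells at 6 h, and rose from 41.8 ± 2.83 to 60.3 ± 6.05 CPM at 12 h (log2 FC = 0.53, SE 0.12, adjusted p = 0.000523 in edgeR), so that it did not move with GRIK1. SLIT2-IT1, a transcript in an intron of SLIT2 on the same strand, had 15 counts in A2780 controls and 6 in treated cells at 6 h (ratio 2.54, 0.930 to 7.98) and 15 and 12 at 12 h (ratio 1.33, 0.582 to 3.12). The exons of GRIK1-AS1 and SLIT2-IT1 lie in introns of the members, and total RNA can hold unspliced transcripts. Intronic reads of SLIT2 could be counted for SLIT2-IT1, and those of GRIK1 for GRIK1-AS1 if counting ignored the strand. The strand setting was not given, and this was not tested. The pseudogene FAM133CP inside BICC1 had 39.1 counts over all 24 libraries, and the microRNA gene MIR218-1 inside SLIT2 had 0 in this total RNA preparation.

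The transcripts whose means ran most like those of the members over the 8 groups were found among the 13091 genes whose mean log2 CPM was 2 or more. Such correlations are a description, since the 8 means share their libraries and line differences weigh heavily in them. Closest to SLIT2 were MAP2, a neuronal microtubule protein (r = 0.997), the lncRNA ENSG00000232682 (r = 0.995) and the protocadherin PCDH19 (r = 0.994). Closest to GRIK1 were PDGFRA, a receptor for platelet-derived growth factor (r = 0.996), NBEA and FBN2. BICC1 ran with MTUS1, NR6A1 and PRR16 (r = 0.995 each), INPP4B with TRPC4, NEFL and JPH1 (r = 0.998 each), and GEMIN5 with the casein kinase 2 subunit CSNK2A1 (r = 0.996) and its near-identical copy CSNK2A3, whose counts are uncertain for that reason, and the lncRNA ENSG00000255351 (r = 0.995). Closest to NACC2 were ENSG00000179979 (r = 0.983), for which no symbol was matched, the lncRNA ENSG00000267755 (r = 0.978) and KCTD5 (r = 0.976). Among the members SLIT2, GRIK1, BICC1 and INPP4B had r = 0.953 to 0.995 with each other, whereas NACC2 had r = 0.279 to 0.423 and GEMIN5 r = -0.124 to 0.423 with the others. Over the 12 A2780 libraries alone, which leaves out the difference between the lines, GEMIN5 had r = 0.975 with SLIT2, 0.946 with GRIK1, 0.804 with INPP4B, 0.787 with BICC1 and 0.641 with NACC2. NACC2 had r = 0.783 to 0.938 with SLIT2, GRIK1, BICC1 and INPP4B in these libraries. These are the treated and control libraries of A2780, and the members were chosen for being lower on treatment. High correlations among them follow from that choice, and nothing is read from them.

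Genes that work with the members were examined as 6 lists with 123 genes, of which 113 were tested. They were listed by function and are not members, so their treatment changes were tested in edgeR as above, with adjustment over all 20240 genes. In A2780 at 6 h 24 of the 113 were lower and 17 higher on treatment, at 12 h 49 and 18, in A2780cis at 6 h 39 and 8, and at 12 h 68 and 14. Over all genes tested 13.4%, 26.1%, 16.3% and 28.9% were called lower and 16%, 28.6%, 14.4% and 31% higher in the same order. Their median log2 FC was -0.03, -0.22, -0.20 and -0.43, beside 0.04, 0.02, 0.00 and 0.04 for all genes tested. With scaling by library size alone the split in A2780 at 12 h was 37 lower and 31 higher.

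Of the 19 SLIT-ROBO genes tested, 6 were lower and 2 higher in A2780 at 6 h, 11 and 3 at 12 h, 9 and 1 in A2780cis at 6 h, and 13 and 2 at 12 h. The receptor ROBO2 fell from 26.4 ± 0.993 to 4.42 ± 0.948 CPM in A2780 at 12 h (log2 FC = -2.60, SE 0.17, adjusted p = 1.82e-12). The receptor ROBO1 fell from 139 ± 3.16 to 48.6 ± 1.07 CPM in A2780 (log2 FC = -1.52, SE 0.12, adjusted p = 1.63e-10) while in A2780cis it went from 72.3 ± 3.33 CPM down to 27.4 ± 5.00 CPM (log2 FC = -1.40, SE 0.13, adjusted p = 8.62e-10) at 12 h. ROBO3, another receptor of the family, rose in A2780 at 12 h from 4.70 ± 0.303 to 8.56 ± 0.879 CPM (log2 FC = 0.87, SE 0.21, adjusted p = 0.000954 in edgeR), so that the receptors did not move in 1 direction. The actin regulator ENAH fell in A2780cis at 12 h (log2 FC = -1.80, SE 0.14), and SRGAP3, a ROBO-binding GTPase-activating protein, rose in A2780 at 12 h (log2 FC = 2.17, SE 0.18). Of the other ligands, SLIT3 had no more than 1 count in any library and SLIT1 had 72 or fewer. In A2780cis controls at 12 h SLIT1 was at 3.49 ± 0.207 CPM, near the low level of SLIT2 there (3.82 ± 0.350 CPM). Treated A2780cis cells held 2.91 ± 0.487 CPM of SLIT1 at 12 h, which did not pass the test (log2 FC = -0.26, SE 0.25, adjusted p = 0.391 in edgeR).

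Of the 13 ionotropic glutamate receptor genes tested, 3 were lower and 2 higher in A2780 at 6 h, 5 and 2 in A2780 at 12 h, and 3 and 2 in A2780cis at each time. The AMPA receptor subunit GRIA4 fell from 51.4 ± 4.12 to 23.3 ± 1.19 CPM in A2780 at 12 h (log2 FC = -1.14, SE 0.13, adjusted p = 4.31e-08), and the NMDA receptor subunit GRIN3A fell from 17.99 ± 0.639 to 6.51 ± 0.310 CPM (log2 FC = -1.47, SE 0.13, adjusted p = 5.00e-10). GRIN2C, another NMDA receptor subunit, rose in each line. In A2780 at 12 h it went from 1.56 ± 0.459 to 22.7 ± 2.97 CPM (log2 FC = 3.88, SE 0.26, adjusted p = 3.60e-12) and in A2780cis it reached 19.8 ± 4.84 CPM from 2.91 ± 0.707 CPM (log2 FC = 2.78, SE 0.24, adjusted p = 2.14e-10). The receptor family of GRIK1 therefore did not move in 1 direction.

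Of the 25 phosphoinositide phosphatase and PI3K genes, 4 were lower and 8 higher in A2780 at 6 h, 6 and 6 at 12 h, 6 and 2 in A2780cis at 6 h, and 16 and 4 at 12 h. INPP5A, a phosphatase of inositol trisphosphate, fell from 30.0 ± 2.09 to 7.30 ± 0.410 CPM in A2780 (log2 FC = -2.04, SE 0.11, adjusted p = 4.76e-14) while in A2780cis it went from 40.6 ± 2.03 CPM down to 4.85 ± 0.460 CPM (log2 FC = -3.06, SE 0.11, adjusted p = 1.07e-16) at 12 h. INPP5D, which encodes the phosphatase SHIP1, rose from 2.72 ± 0.303 to 28.1 ± 1.59 CPM in A2780 at 12 h (log2 FC = 3.36, SE 0.17, adjusted p = 1.45e-14), next to the decrease of INPP4B there. INPP4A, the nearest relative of INPP4B, did not pass the test in A2780 at 12 h (log2 FC = -0.17, SE 0.13, adjusted p = 0.261 in edgeR) and fell in A2780cis at 12 h (log2 FC = -0.48, SE 0.13, adjusted p = 0.00246 in edgeR). It was named for its kinship.

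Of the 22 SMN complex and snRNP assembly genes, 4 were lower and 1 higher in A2780 at 6 h, 10 and 1 at 12 h, 13 and 3 in A2780cis at 12 h, and 7 were lower in A2780cis at 6 h. The methyltransferase PRMT5 fell from 232 ± 3.46 to 143 ± 9.29 CPM in A2780 (log2 FC = -0.70, SE 0.09) while in A2780cis it went from 324 ± 15.05 CPM down to 207 ± 24.96 CPM (log2 FC = -0.65, SE 0.08) at 12 h. The Sm protein gene SNRPB fell in A2780 at 12 h (log2 FC = -0.85, SE 0.12), and GEMIN4, a partner of GEMIN5 in the SMN complex, fell in A2780cis at 12 h (log2 FC = -0.97, SE 0.11). None of these 3 reached the log2 FC of GEMIN5. SMN1 and SMN2 are near-identical copies and their counts are uncertain.

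Of the 16 BICC1 partners, cilium and CCR4-NOT genes, 4 were lower and 1 higher in A2780 at 6 h, 8 and 3 at 12 h, 8 and 1 in A2780cis at 6 h, and 10 and 2 at 12 h. CNOT1, the scaffold of the deadenylase complex, fell from 525 ± 23.6 to 186 ± 2.91 CPM in A2780 (log2 FC = -1.50, SE 0.11, adjusted p = 1.57e-11) while in A2780cis it went from 402 ± 10.4 CPM down to 122 ± 8.65 CPM (log2 FC = -1.72, SE 0.11, adjusted p = 1.20e-12) at 12 h. The cilium gene INVS fell in both lines (log2 FC = -0.86, SE 0.09, and -0.89, SE 0.09).

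Of the 18 NACC1, BEN-domain and NuRD genes tested, 3 were lower and 3 higher in A2780 at 6 h, 9 and 3 at 12 h, 6 and 2 in A2780cis at 6 h, and 13 and 1 at 12 h. The NuRD helicase CHD4 fell from 450.3 ± 15.9 to 169 ± 5.78 CPM in A2780 (log2 FC = -1.42, SE 0.10, adjusted p = 1.00e-11) while in A2780cis it went from 340 ± 15.1 CPM down to 115 ± 5.34 CPM (log2 FC = -1.57, SE 0.10, adjusted p = 1.50e-12) at 12 h. MTA1, a NuRD subunit, fell early in A2780cis, from 40.6 ± 4.31 to 15.6 ± 2.44 CPM at 6 h (log2 FC = -1.37, SE 0.19, adjusted p = 5.74e-06 in edgeR). Its log2 FC there was -1.33 (SE 0.18) at 12 h, and in A2780 it was -0.67 (SE 0.19) at 6 h and -1.39 (SE 0.18) at 12 h. NACC1, the closest relative of NACC2, was at 88.005 ± 13.1 CPM in A2780 controls and 61.1 ± 9.62 CPM in treated cells at 12 h (log2 FC = -0.53, SE 0.17, adjusted p = 0.0128 in edgeR), a smaller fitted change than that of NACC2. NACC1 did not pass the test in A2780 at 6 h (log2 FC = 0.40, SE 0.18, adjusted p = 0.0925 in edgeR). In A2780cis NACC1 rose at 6 h (log2 FC = 0.50, SE 0.18, adjusted p = 0.0383 in edgeR), while NACC2 was low there. At 12 h NACC1 fell in A2780cis as well (log2 FC = -0.43, SE 0.17, adjusted p = 0.0353 in edgeR). Its fitted change thus had the same sign in both lines at each time.

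**Figure D5:**
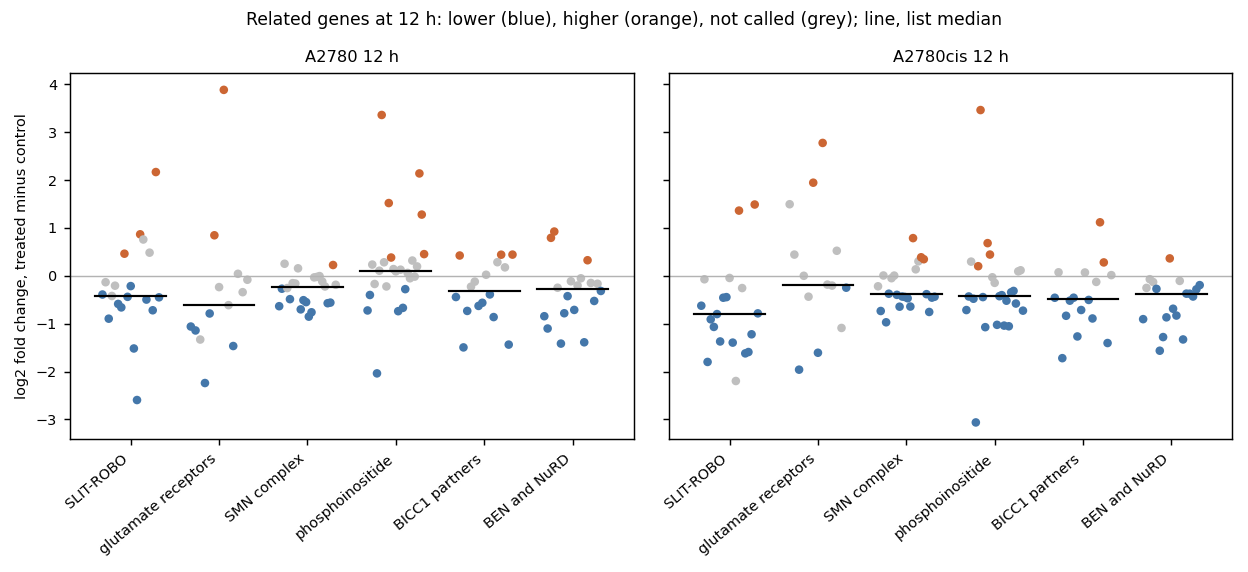
Log2 fold change of treated over control cells at 12 h for the 113 related genes tested, by list, in A2780 (left) and A2780cis (right), 1 point per gene in alphabetical order within a list, coloured by the call of edgeR, with a line at the list's median. In A2780cis 68 points are lower and 14 higher, in A2780 49 and 18, and GRIN2C and INPP5D are the highest points of A2780.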

How the data were processed

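Per the labels and the study's methods, cells of each line were treated in triplicate, total RNA was made into libraries with the TruSeq Stranded Total RNA kit, and the authors trimmed the reads with Trimmomatic, aligned them with STAR 2.5.2b to GRCh38.p7 and counted them over Gencode exons with featureCounts. The authors deposited expected counts (not normalized), in which a read with several alignments adds a fraction to each and reads over several genes are allowed, so that 9.5% to 12.8% of a library's values have a fractional part. The labels give single reads and the methods paired reads, and the strand setting was not given in the sources used here.

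Counts were rounded and fitted in R 4.3.3 with edgeR 4.0.16 (filterByExpr with minimum count 10 and minimum total 15, TMM, quasi-likelihood, 1 coefficient for each of 8 groups, 16 residual degrees of freedom), with a threshold of 0.05 on Benjamini-Hochberg adjusted p-values over 20240 genes. The member genes, the gene lists and the tests were chosen with earlier results of these data known. Genes named are the members, up to 3 tested genes of each related list with the smallest p in each treatment comparison, the 3 genes whose means over the 8 groups correlated best with a member's, and genes overlapping a member with at least 10 counts. INPP4A, NACC1, SLIT1 and SMN1, together with MIR218-1, SLIT3, ROBO3 and the markers, were named outside this rule. A group was treated as at the floor when its libraries held at most 3 counts together. Folds for groups with 0 counts use that number and leave out the counting error of the controls. Counting intervals are exact 95% intervals on summed counts and, as the reads carry no molecular identifiers, cover counting error only. Identifiers were matched to GENCODE release 44 (56948 of 63299). In simulated data for A2780 at 12 h (19138 genes) 85 of 100 genes changed by 1 on the log2 scale, 97 of 100 changed by 2, and 12 of 18938 unchanged genes were called. The changed genes were drawn from those with a mean above 1 CPM, and all other genes had the same mean in every group. These rates do not carry over to genes near 0 counts or to comparisons in which many genes change. Replicate libraries differed by more than counting noise (chi-square per degree of freedom 2.21 or more). Alternatives tried were median-of-ratios size factors, scaling by library size only, no filter or a mean log2 CPM of 2 or more, unrounded values, a replicate block, a fit of the compared groups by themselves, the Wald test of DESeq2 1.42.0, and leaving out each compared library. Figures were drawn with Python 3.11.15 and matplotlib 3.10.9.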

Additional observations from a re-analysis of the deposited data

How the results depend on the processing

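In untreated cells 5 members were called between the lines at each time under every alternative and with each library left out, and the member folds on treatment that were refitted kept their direction. Those of GRIK1, BICC1 and INPP4B in A2780cis were not refitted, since groups there held 0 or few counts. Libraries of the same replicate number were not treated as pairs, since no comparison had a correlation over 0.1 in all 3 pairs. Pairs over 0.1 numbered 2 between the untreated lines at 12 h and 1 for treatment in A2780cis at 12 h. Whether libraries of the same number were handled together cannot be told from these correlations. With the replicate block 5 members were called between the untreated lines at each time, and no test of a member changed its side of the threshold. Related genes called in A2780 at 12 h numbered 73 with the block and 67 in the main fit.

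With library size alone the median log2 FC of genes over 200 kb was -0.308 in A2780 at both times, -0.358 in A2780cis at 6 h and -0.721 at 12 h, and 3 members were called between untreated times in A2780. In A2780cis 2 members were still called, but SLIT2 (0.56) in place of GEMIN5 (-0.05). Without a filter that median was -0.497 in A2780 at 12 h, -0.359 in A2780cis at 6 h and -0.697 at 12 h, and its distance to genes under 20 kb was -0.528, -0.510 and -0.842. With a mean log2 CPM of 2 or more it was -0.550 in A2780 at 12 h (distance -0.567) and -0.939 in A2780cis at 12 h, and with the compared samples alone -0.517 in A2780 at 12 h. With the compared samples alone 3 members were lower in A2780cis at 12 h, because GRIK1, BICC1 and INPP4B did not pass the count filter of that fit, 3 members were called between untreated times in A2780 and 1 in A2780cis, and GRIK1 gave no value for the last. The DESeq2 Wald test called 2 members between untreated times in A2780, and 1 was called in A2780cis without a filter. INPP4B between untreated times of A2780, not called, reversed to 0.056 with library size alone and 0.016 without a filter. The cause was not tested.

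With 1 library left out, members lower in A2780cis at 6 h numbered 2 to 4 (4 without replicate 3 of the 6 h controls) and members called between untreated times of A2780cis 0 to 2 (0 without replicate 3 of the 12 h controls, 1 without replicate 1 of the 6 h or replicate 1 or 2 of the 12 h controls). The median of genes over 200 kb was -0.504 to -0.394 in A2780cis at 6 h and -0.559 to -0.517 in A2780 at 12 h, where the distance was -0.645 to -0.592. Uncalled differences that changed sign were NACC2 between the lines (-0.18 to 0.10 at 6 h, -0.186 to 0.0758 at 12 h) and, between untreated times of A2780, BICC1 (-0.0111 to 0.149) and INPP4B (-0.13 to 0.10). At 11077368 to 21901406 counts per library, changes of GRIK1, BICC1 and INPP4B in A2780cis at 6 h were not detectable.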
